A study of Mus musculus with 4 samples.

Results

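The genes examined here encode the dual-specificity phosphatases (Dusp) and the Sprouty (Spry) and Spred proteins, which restrain MAP kinase signalling, in sorted mouse hair follicle stem cells. The members were all rows of the count table whose symbol was Dusp, Spry or Spred followed by a number alone. This gave 31 of the 24084 gene rows. Of these, 10 are genes of negative feedback on the kinase ERK (Dusp4, Dusp5, Dusp6, Spry1 to Spry4 and Spred1 to Spred3), 5 are stress-type phosphatases (Dusp1, Dusp2, Dusp8, Dusp10 and Dusp16), and the other 16 are Dusp genes of mixed function.

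MAP kinase cascades relay signals from cell surface receptors. In the ERK branch the order is receptor, Ras, Raf, MEK and ERK, whereas the JNK and p38 branches answer mainly to stress and cytokines. The MAP kinase phosphatases among the Dusp proteins switch these kinases off by removing phosphate from both the threonine and the tyrosine of the activation loop. Sprouty and Spred proteins act further up, between the receptor and Raf. ERK activity induces transcription of several of these genes, Dusp6 and the Sprouty genes among them, so that their RNA is widely used as a readout of the pathway. In skin, ERK signalling below growth factor receptors takes part in keratinocyte proliferation and in the hair cycle.

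RNA was sequenced from 2 Foxp3-DTR libraries, called C and D, and 2 WT libraries, called A and C. All came from C57BL/6 mice of 7 to 10 weeks, were sorted from skin epidermis at day 4 after depilation, and shared an intraperitoneal dose of diphtheria toxin of 15 ng/g. Foxp3-DTR mice carry the toxin receptor in cells that express Foxp3, the regulatory T cells, which are labelled as depleted in this group and as present in WT, and the comparison asks how the stem cells differ without them. The number of animals behind each library is not given in the sources used here, so the p-values weigh group differences against the spread of these 4 libraries alone, and that spread may be technical.

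Gene counts per library ran from 13911765 to 15923154, and 1 count was worth between 0.0615 and 0.0709 CPM (the count relative to the library's total, scaled by TMM factors). All 10 markers of the labelled cell type were expressed and tested, and none was called in edgeR's test. They summed to 27335 and 31663 CPM in Foxp3-DTR C and D and 33116 and 34003 CPM in WT A and C, mostly from Krt5, Krt15 and Krt14. Within the list DESeq2 called Cd34 and Itga6 higher and Lhx2 lower in Foxp3-DTR, with edgeR log2 fold changes of 0.63, 0.70 and -0.88. T cell markers had no tested gene and summed to at most 6.83 CPM, and endothelial and myeloid markers summed to at most 4.74 and 25.8 CPM. Fibroblast markers summed to 27.9 and 31.8 CPM in Foxp3-DTR C and D and 40.0 and 53.4 CPM in WT A and C. Among them DESeq2 called Col1a1 lower in Foxp3-DTR, with an edgeR log2 fold change of -1.84 that was not called. The melanocyte markers, of which 5 of 6 were tested and 0 called, summed to 117 and 138 CPM in Foxp3-DTR and 96.1 and 140.1 CPM in WT, mostly from Mitf. Mitf overlapped between the groups, but Pmel, Tyrp1 and Tyr did not. Of the 5 tested, Foxp3-DTR was thus higher without overlap in 3 and lower in 0, beside 22% and 23.7% of all tested genes. Pmel had 6.03 and 8.36 CPM in Foxp3-DTR C and D against 2.82 and 2.28 CPM in WT A and C. Foxp3 had 0 counts in every library, so depletion could not be checked here. The 6 suprabasal epidermal markers differed within each group and summed to 1173 and 6800 CPM in Foxp3-DTR C and D and 8016 and 932 CPM in WT A and C. Krt10, a keratin of that layer, had 458 and 3796 CPM in Foxp3-DTR and 4562 and 249 CPM in WT. The 6 sebaceous markers summed to 387 and 494 CPM in Foxp3-DTR and 1980 and 351 CPM in WT. Their part in the results below was not tested, and fewer cells of a type and less RNA per cell cannot be told apart in such libraries. Sex was confounded with group: Xist stood at 1.86 and 0 CPM in Foxp3-DTR C and D against 861 and 2482 CPM in WT A and C, while the 4 Y-linked genes examined had 0 counts in WT and all 4 were called higher in Foxp3-DTR. The title code (DEP3 in Foxp3-DTR, DEP2 in WT) was confounded in the same way. Genotype, sex and whatever that code marks cannot be told apart in any value below.

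No member passed the threshold between Foxp3-DTR and WT. Of the 31 members, 26 passed the filter on low counts and were tested, and 0 of them had an adjusted p under 0.05 in edgeR's quasi-likelihood test, where 1.25% of all 12920 tested genes did. At an unadjusted p under 0.05 there were 4 members (Dusp6 and Spry4 higher in Foxp3-DTR, Spry3 and Dusp18 lower), against 14.6% of all tested genes. Limma-voom called 0 of the 26, where it called 0.72% of all genes, and DESeq2 called 1, Dusp6, where it called 7.4% of the genes to which it gave an adjusted p. Fold changes were positive for 13 members and negative for 13. The groups did not overlap, with Foxp3-DTR higher, in 6 members (22% of all tested genes), and with Foxp3-DTR lower in 7 members (23.7% of all tested genes). The members' counts were thus close to the background on each of these measures.

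**Figure D1:**
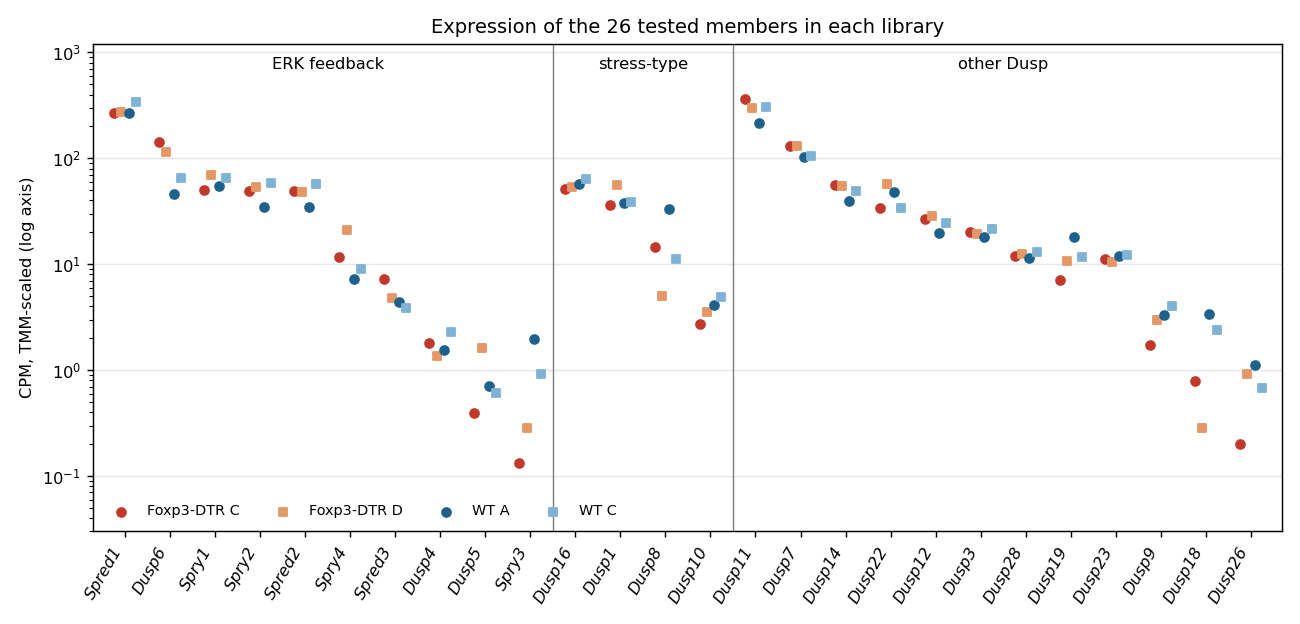
Normalised expression of each tested member in each library, in CPM on a log axis, with members grouped by role and ordered by mean level. Red and orange points are the Foxp3-DTR libraries, and dark and light blue points are the WT libraries. The Foxp3-DTR points of Dusp6 (142 and 116 CPM) stand clear above its WT points (45.5 and 64.9 CPM). Those of Dusp7 (129 and 131 CPM) also lie above its WT points (103 and 104.5 CPM), by less.

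Per kilobase of exon, the most abundant members were Dusp11, Spred1, Dusp7 and Dusp6. Dusp11, a phosphatase that acts on the 5′ end of RNA and not mainly on MAP kinases, averaged 46.1 CPM per kilobase over the 4 libraries. Spred1, which recruits the Ras inhibitor neurofibromin to the membrane, averaged 42.2 CPM per kilobase, and the libraries of these 2 genes overlapped. Dusp7 averaged 36.4 and Dusp6 32.9 CPM per kilobase, followed by Dusp14 at 28.4, Spry2 at 23.5, Spry1 at 20.6, Dusp12 at 18.1 and Dusp1 at 17.9. Neighbours in this order overlapped in their libraries. The place of Dusp6 differed by group: it had 50.7 and 41.3 CPM per kilobase in Foxp3-DTR C and D, above Spred1 in the same libraries (39.2 and 40.1), and 16.3 and 23.2 CPM per kilobase in WT A and C, below Spred1 there (39.5 and 50.1). At the low end, Dusp4 averaged 0.635, Dusp5 0.338 and Spry3 0.19 CPM per kilobase, which placed the inducible nuclear ERK phosphatases among the scarce members. The 5 members below the filter had at most 7 counts in any library: Dusp2 reached 7, Dusp13 reached 4, and Dusp15, Dusp21 and Dusp27 had 0 counts in all 4 libraries.

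Among the ERK feedback members, Dusp6 had the largest positive difference. Dusp6 encodes the cytoplasmic phosphatase that is selective for ERK and binds it directly. Its gene lies on mouse chromosome 10 (GRCm38, 99263231 to 99267489), and none of its exons overlap another annotated gene. Dusp6 had 142 and 116 CPM in Foxp3-DTR C and D, against 45.5 and 64.9 CPM in WT A and C. Both Foxp3-DTR libraries lay above both WT libraries. The means were 129 ± 18.6 CPM in Foxp3-DTR and 55.2 ± 13.7 CPM in WT (SD, n = 2 each), a log2 fold change of 1.22 ± 0.24 (SE) with a 95% interval of 0.66 to 1.79. The edgeR adjusted p was 0.0678, so the gene missed the threshold, ranking 299 by p where 161 genes were called. A log2 fold change of larger size was seen in 9.71% of all tested genes.

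The call on Dusp6 depended on the setting. It was past the threshold in DESeq2 (adjusted p = 0.000251) and in edgeR with no filter on low counts (0.0164), without Foxp3-DTR D (edgeR adjusted p = 0.0445) and without WT C (0.0359). It was not past it in limma-voom (adjusted p = 0.0767), without Foxp3-DTR C (edgeR adjusted p = 0.258) or without WT A (0.0946). With DESeq2-type size factors in edgeR, Dusp6 also missed the threshold (edgeR adjusted p = 0.0626). Its log2 fold change was 1.07 without Foxp3-DTR C, 1.37 without Foxp3-DTR D, 1.001 without WT A and 1.5025 without WT C.

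**Figure D2:**
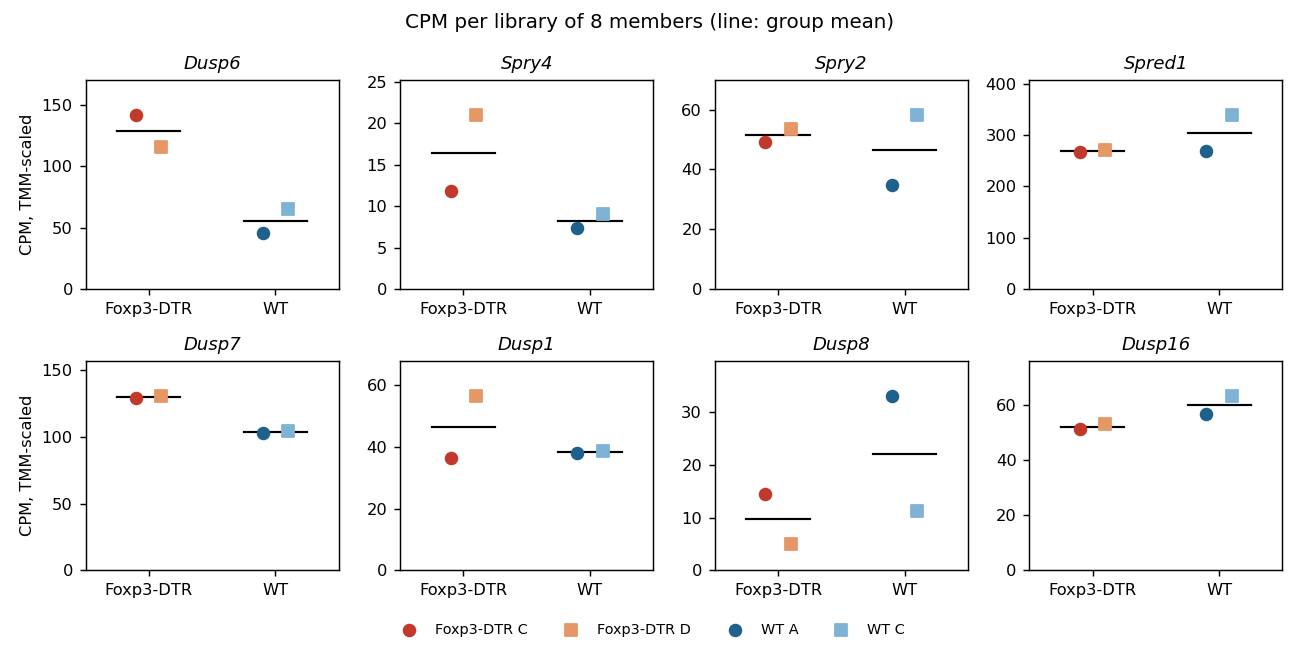
CPM in each library for 8 members, from 0 on a linear axis, with Foxp3-DTR on the left, WT on the right and a line at each group mean. The Foxp3-DTR points of Dusp6 (116 and 142 CPM), Spry4 (11.8 and 21.04 CPM) and Dusp7 (129 and 131 CPM) lie above the WT points. Those of Dusp16 (51.3 and 53.3 CPM) lie below them, and those of Spry2, Spred1, Dusp1 and Dusp8 overlap them.

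The 4 Sprouty genes, whose products are recruited below receptor tyrosine kinases and dampen Ras and Raf activation, did not share a pattern. Spry4 had 11.8 and 21.04 CPM in Foxp3-DTR C and D, against 7.32 and 9.10 CPM in WT A and C. The groups did not overlap, but Foxp3-DTR D was well above Foxp3-DTR C, and the log2 fold change of 0.998 ± 0.39 had an edgeR adjusted p of 0.311. The log2 fold change was 0.53 without Foxp3-DTR D. Spry2 had 49.3 and 53.6 CPM in Foxp3-DTR C and D, and 34.8 and 58.4 CPM in WT A and C. Its Foxp3-DTR libraries fell between the WT libraries, with a log2 fold change of 0.14 and a 95% interval of -0.52 to 0.81. Spry1 had 50.4 and 69.7 CPM in Foxp3-DTR and 54.3 and 65.1 CPM in WT, again with overlap (log2 fold change 0.01, interval -0.54 to 0.56). An annotated gene on the opposite strand covers at least 710 bp of the Spry1 exons, and reads of the pair cannot be told apart here. Spry3, at the limit of detection, had 2 and 4 counts in Foxp3-DTR C and D and 28 and 15 counts in WT A and C, which gave -2.75 ± 1.09 on the log2 scale, with an interval of -5.37 to -0.14 (edgeR adjusted p = 0.313). RefSeq assigns Spry3 to the X chromosome, for which the groups also differ in sex.

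The Spred genes encode membrane-bound relatives of Sprouty. Spred1 had 266 and 272 CPM in Foxp3-DTR C and D, against 268 and 340 CPM in WT A and C. The Foxp3-DTR libraries lay at the level of WT A, and the log2 fold change was -0.18 with a 95% interval of -0.64 to 0.29. Spred2 had 48.9 and 48.4 CPM in Foxp3-DTR and 35.1 and 56.6 CPM in WT, with WT on both sides of Foxp3-DTR (log2 fold change 0.08, interval -0.56 to 0.72). Spred3, the scarce family member, had 7.29 and 4.82 CPM in Foxp3-DTR and 4.44 and 3.87 CPM in WT. Its groups did not overlap, but its interval of -0.66 to 1.75 was wide.

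Dusp4 and Dusp5, the nuclear phosphatases induced by ERK signalling, had low counts and wide intervals. Dusp4 had 27 and 19 counts in Foxp3-DTR C and D and 22 and 37 counts in WT A and C. Dusp5 had 6 and 23 counts in Foxp3-DTR C and D and 10 counts in each WT library. Their groups overlapped, and their 95% intervals ran from -2.10 to 1.53 and from -1.93 to 3.15 on the log2 scale. A gene on the opposite strand covers at least 547 bp of the Dusp5 exons. Over the 10 ERK feedback members the median log2 fold change was 0.11, with 7 positive and 3 negative, beside a median of -0.01 over all tested genes. That median depended on the WT library used: it was -0.14 without WT A and 0.46 without WT C.

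The 250 bases before the RefSeq start of Dusp6 and Spry2 are shown because both genes are widely read as outputs of ERK, while the RNA of Dusp6 was apart between the groups and that of Spry2 overlapped. Capitals mark matches to the motifs searched, which were AP-1 (TGANTCA), CRE (TGACGTCA), its short form (TGACG, which the full CRE contains), ETS (CCGGAAG), Sp1 (GGGCGG), the TATA box (TATAAA), the CArG box and NF-kappaB, on both strands. The Dusp6 window is chr10:99262981-99263230 on the plus strand and the Spry2 window chr14:105896820-105897069 on the minus strand (GRCm38.p6, RefSeq).
Dusp6: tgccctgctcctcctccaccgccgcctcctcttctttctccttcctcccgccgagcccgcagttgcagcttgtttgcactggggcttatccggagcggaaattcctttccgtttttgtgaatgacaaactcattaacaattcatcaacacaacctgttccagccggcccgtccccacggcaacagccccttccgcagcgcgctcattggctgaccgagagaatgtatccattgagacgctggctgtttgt
Spry2: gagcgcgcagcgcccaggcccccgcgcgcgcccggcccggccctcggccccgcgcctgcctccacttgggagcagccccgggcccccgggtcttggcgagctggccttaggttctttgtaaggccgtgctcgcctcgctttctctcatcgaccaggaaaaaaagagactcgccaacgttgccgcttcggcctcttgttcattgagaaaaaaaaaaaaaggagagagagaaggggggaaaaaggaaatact
Neither window held any of these motifs, so neither has capitals. Windows were found for 23 of the 31 members. Their median GC content was 62.4%, against 52% over the windows of 27025 genes, and 20 of the 23 were above that median. The Sp1 letters occurred in 16 of the 23 member windows and in 32.9% of all windows. The short CRE letters occurred in 7 member windows and 17.9% of all windows, and each of the AP-1 (6.87% of all), ETS (7.05%), CArG (1.4%) and NF-kappaB (3.75%) letters in 1. The TATA letters occurred in 0 member windows and 13% of all windows.

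The stress-type phosphatases, several of which act mainly on JNK and p38, gave no common direction. Dusp1, an immediate early gene that is induced by stress and glucocorticoids, had 36.5 and 56.5 CPM in Foxp3-DTR C and D, against 38.2 and 38.7 CPM in WT A and C. Foxp3-DTR C lay below both WT libraries and Foxp3-DTR D above them, and the log2 difference was 0.27 ± 0.26 (edgeR adjusted p = 0.722). Dusp16 had 51.3 and 53.3 CPM in Foxp3-DTR and 56.8 and 63.4 CPM in WT. Its Foxp3-DTR libraries lay just under the WT libraries, with a log2 fold change of -0.20 and a 95% interval of -0.65 to 0.24. Dusp8 had 14.5 and 5.03 CPM in Foxp3-DTR C and D and 33.1 and 11.2 CPM in WT A and C. The groups overlapped, each group's replicates differed widely, and the log2 difference was -1.18 ± 0.70 (edgeR adjusted p = 0.548). Leaving out Foxp3-DTR C gave -2.13, and leaving out WT A gave -0.19. Dusp10 had 2.72 and 3.54 CPM in Foxp3-DTR against 4.15 and 4.86 CPM in WT, with an interval of -1.84 to 0.79. Over the 4 tested members the median log2 fold change was -0.36, with 1 positive and 3 negative.

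The full CRE letters, the cyclic AMP response element, occurred in 2 of the 5 windows, those of Dusp1 and Dusp8, in 0 of the 7 windows of ERK feedback members, and in 1.62% of all windows. The Dusp8 window (chr7:142095285-142095534, minus strand) and a stretch of 30 bases from the Dusp1 window (chr17:26508597-26508626, minus strand) are shown for these matches, with CRE and Sp1 letters in capitals. The Dusp8 window precedes a RefSeq start inside the annotated span of the gene. The bases checked after that start were not found in a GENCODE M21 transcript of Dusp8. The Dusp1 window overlaps annotated exon sequence of Dusp1.
Dusp8: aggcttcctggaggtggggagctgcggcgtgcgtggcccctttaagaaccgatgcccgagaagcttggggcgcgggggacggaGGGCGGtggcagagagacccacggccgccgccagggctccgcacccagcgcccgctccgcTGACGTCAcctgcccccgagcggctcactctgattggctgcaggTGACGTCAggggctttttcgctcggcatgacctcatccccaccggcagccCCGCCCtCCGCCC
Dusp1: ggtaGGGCGGgTGACGTCACCGCCCggtca
In Dusp8 the full CRE occurs at positions 107 and 63 before the start, and in Dusp1 it occurs at position 143 before the start, each counted to its first base. The expression values of these 2 genes are the ones given above, and neither difference passed the threshold.

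**Figure D3:**
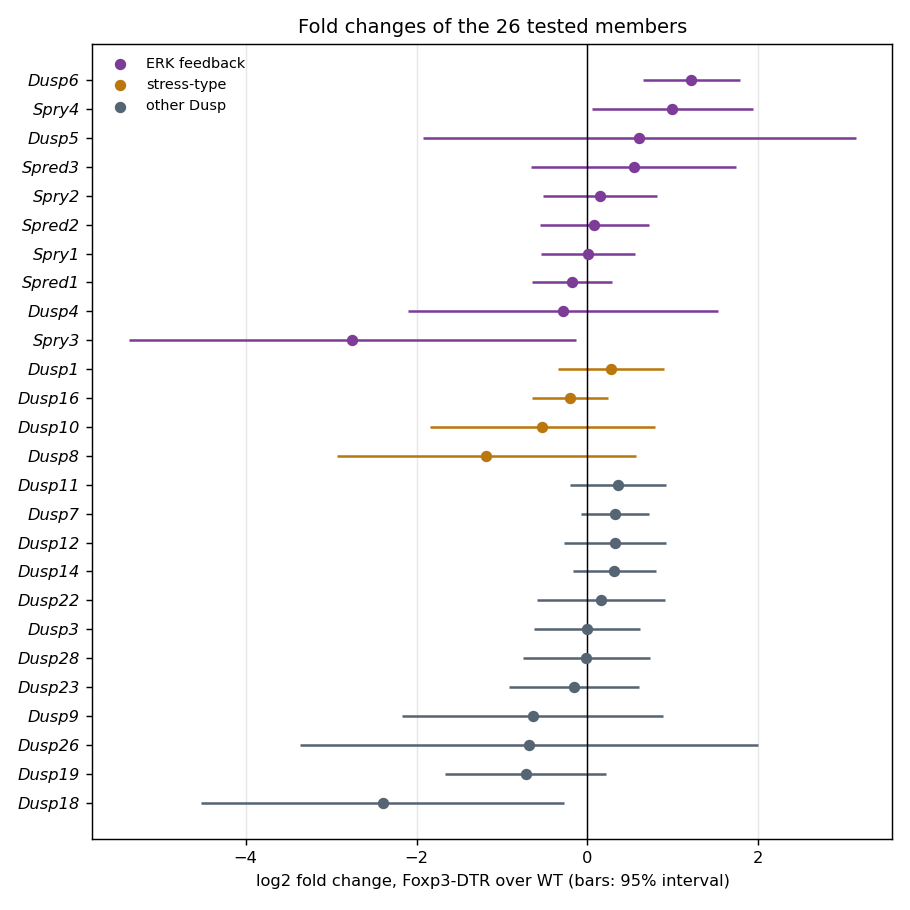
Log2 fold change of Foxp3-DTR over WT for each of the 26 tested members (points) with 95% intervals (bars), coloured by group and sorted within it. The interval of Dusp6 runs from 0.66 to 1.79, and the wide bars belong to scarce genes such as Spry3, Dusp5, Dusp18 and Dusp26.

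Of the remaining 16 Dusp genes, 12 were tested. Dusp7, a close relative of Dusp6 that also acts on ERK in the cytoplasm, had 129 and 131 CPM in Foxp3-DTR C and D, against 103 and 104.5 CPM in WT A and C. The replicates were close to each other and the groups did not overlap, but the difference was small, at 0.33 ± 0.17 on the log2 scale (edgeR adjusted p = 0.454) with a 95% interval of -0.07 to 0.73. Dusp9, their X-linked relative, had 1.72 and 2.98 CPM in Foxp3-DTR and 3.31 and 3.998 CPM in WT, lower in Foxp3-DTR without overlap, with an interval of -2.16 to 0.89. Dusp14 had 55.6 and 55.1 CPM in Foxp3-DTR against 39.6 and 49.2 CPM in WT. Dusp12 had 26.8 and 28.7 CPM in Foxp3-DTR against 19.6 and 24.7 CPM in WT. Their groups did not overlap, with log2 fold changes of 0.32 and 0.33 (edgeR adjusted p = 0.57 and 0.645). The exons of Dusp12 share at least 474 bp with genes on the opposite strand, and those of Dusp3 share at least 393 bp. The exons of Dusp19 share at least 49 bp with Nup35 on the same strand.

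Dusp18, a small atypical phosphatase, had the largest difference of the other Dusp genes, at low counts. It had 12 and 4 counts in Foxp3-DTR C and D and 48 and 39 counts in WT A and C. The groups did not overlap, and the log2 fold change was -2.40 ± 0.89 with an edgeR adjusted p of 0.276. Dusp19, another atypical phosphatase, had 7.10 and 10.8 CPM in Foxp3-DTR and 17.95 and 11.6 CPM in WT, with an interval of -1.67 to 0.22 on the log2 scale. Dusp11 (365 and 301 CPM in Foxp3-DTR, 214 and 306 CPM in WT) and Dusp22 (34.0 and 57.2 CPM in Foxp3-DTR, 47.6 and 33.9 CPM in WT) overlapped between the groups. Dusp3, Dusp23 and Dusp28 had log2 fold changes between -0.15 and -0.0021, and Dusp26 had at most 16 counts in any library. The median log2 fold change of these 12 was -0.01.

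The data bound the differences of the abundant members. The 95% interval lay within a 2-fold change in either direction for 14 of the 26 tested members, which included Spred1, Spred2, Spry1, Spry2, Dusp1, Dusp7 and Dusp16, and for 6542 of all 12920 tested genes. For the other 12, among them Dusp6, Spry4 and the scarce members, the interval reached beyond a 2-fold change.

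The cascade these genes act on showed no called difference in its core. Of 21 genes from Ras and its activators to ERK and its substrate kinases, all were tested and 0 passed in edgeR's test, beside 1.25% of all tested genes. At an unadjusted p under 0.05 there were 2, against 14.6% of all tested genes. DESeq2 called 2 higher (7.4% of all its genes) and limma-voom 0 (0.72%), and the median log2 fold change was 0.09. Mapk3, which encodes ERK1, had 221 and 246 CPM in Foxp3-DTR C and D and 260 and 211 CPM in WT A and C, with overlap. The gene with the smallest p was Ksr1, a scaffold for Raf, MEK and ERK, at 20.6 and 14.2 CPM in Foxp3-DTR against 5.07 and 6.64 CPM in WT, a log2 fold change of 1.57 ± 0.37 that did not pass (edgeR adjusted p = 0.0991).

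Among 16 genes known as transcriptional outputs of ERK, 13 were tested, 2 rose, 0 fell, and the median was 0.44 on the log2 scale (1.25% of all tested genes were called). At an unadjusted p under 0.05 there were 4 higher and 2 lower, where 14.6% of all tested genes lay. DESeq2 called 3 higher and 2 lower (7.4% of all its genes), and limma-voom 2 higher (0.72%). Ier3, an early response gene, rose with 230 and 174 CPM in Foxp3-DTR C and D against 43.2 and 45.02 CPM in WT A and C (log2 fold change 2.20 ± 0.21, edgeR adjusted p = 0.0108). Myc, the growth regulator, rose with 251 and 173 CPM in Foxp3-DTR against 52.5 and 64.7 CPM in WT (log2 fold change 1.86 ± 0.24, edgeR adjusted p = 0.0323, and 0.0512 without Foxp3-DTR C). Etv4 and Etv5, ETS factors induced by growth factor signalling, gave a mixed picture. Etv5 had 93.8 and 103 CPM in Foxp3-DTR against 55.3 and 70.2 CPM in WT, without overlap (log2 fold change 0.65 ± 0.20, edgeR adjusted p = 0.182). Etv4 had 96.6 and 107 CPM in Foxp3-DTR against 98.5 and 118 CPM in WT, with overlap, and Egr1 had 250 and 132 CPM in Foxp3-DTR against 137 and 106 CPM in WT, also with overlap.

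**Figure D4:**
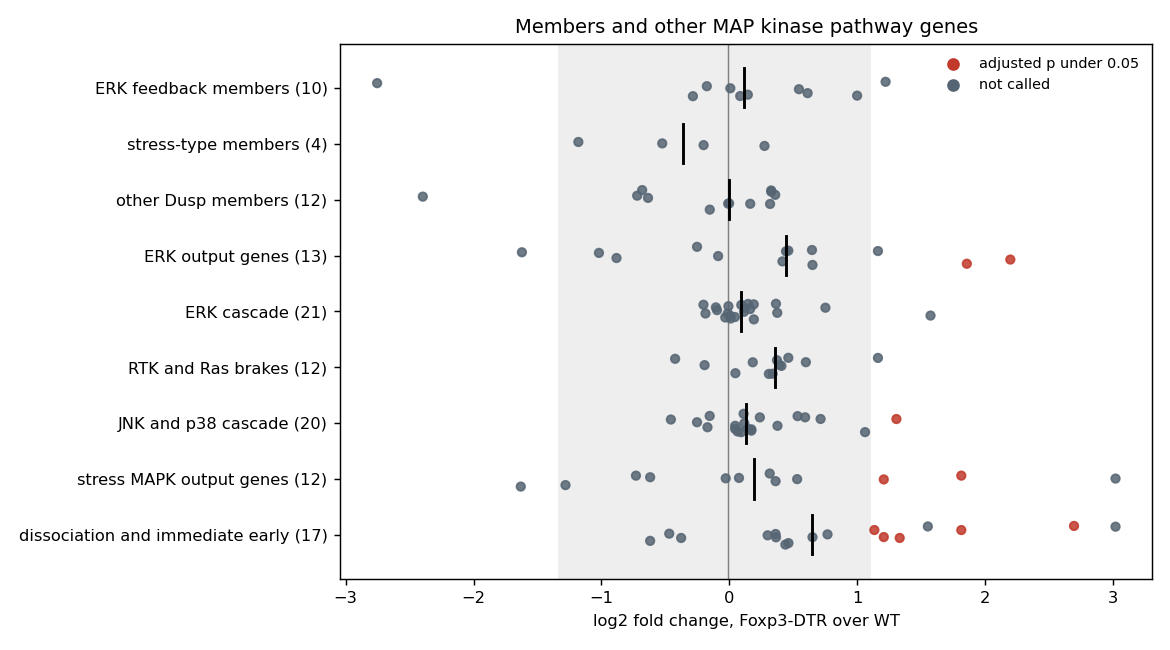
Log2 fold change of Foxp3-DTR over WT for each tested gene of the 3 member groups and of 6 pathway and quality lists, with the number of tested genes in brackets, a black line at each median and red points for genes past the threshold. The grey band spans the 5th to 95th percentile of all tested genes (-1.33 to 1.10). Red points are absent from the 3 member groups and from the ERK cascade and RTK and Ras brake lists, and lie to the right of 1.10 in the other 4 lists.

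Other brakes on receptors and Ras were tested as a list of 12. Of these, 0 passed in edgeR's test (1.25% of all tested genes) and 1 had an unadjusted p under 0.05 (14.6%). DESeq2 called 1 higher (7.4% of all its genes) and limma-voom called 0 (0.72%). The median log2 fold change was 0.35. The gene with the smallest p was Errfi1, an inhibitor of the EGF receptor that is also on the ERK output list, at 57.8 and 97.3 CPM in Foxp3-DTR against 27.2 and 42.1 CPM in WT (log2 fold change 1.16 ± 0.33, edgeR adjusted p = 0.163).

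In the JNK and p38 branch, 1 of 20 cascade genes rose, 0 fell, and the median was 0.13 on the log2 scale (1.25% of all tested genes were called). At an unadjusted p under 0.05 there were 4, all higher, against 14.6% of all tested genes. DESeq2 called 2 higher and limma-voom 1 higher, beside 7.4% and 0.72% of all genes called by each in either direction. The gene called in edgeR was Mapkapk3, a kinase activated by p38. It had 214 and 222 CPM in Foxp3-DTR C and D against 98.1 and 78.5 CPM in WT A and C (log2 fold change 1.31 ± 0.19, edgeR adjusted p = 0.0427). It missed the threshold without Foxp3-DTR C (adjusted p = 0.11) and without Foxp3-DTR D (0.0504). Of 13 stress MAP kinase outputs, 12 were tested, 2 rose and 0 fell, with a median of 0.19, beside 1.25% of all tested genes called. At an unadjusted p under 0.05 there were 3 higher and 4 lower, against 14.6% of all tested genes. DESeq2 called 3 higher and 2 lower (7.4% of all its genes), and limma-voom 1 higher (0.72%). Those that DESeq2 alone called were Atf3, a stress-induced factor, at 3.02 ± 0.65 in edgeR's log2 fold change, and the growth arrest genes Gadd45a (-1.28 ± 0.36) and Gadd45g (-1.63 ± 0.31), none of which passed in edgeR. Junb, an AP-1 subunit, had 282 and 221 CPM in Foxp3-DTR against 70.4 and 72.8 CPM in WT (log2 fold change 1.81 ± 0.20, edgeR adjusted p = 0.0174). Zfp36, which destabilises cytokine mRNAs, rose by 1.21 ± 0.19 (edgeR adjusted p = 0.0444, against 0.0577 in limma-voom, 0.188 without Foxp3-DTR C and 0.0518 without WT C). Jun, the main substrate of JNK, had 71.8 and 46.8 CPM in Foxp3-DTR against 97.4 and 85 CPM in WT and did not pass (edgeR adjusted p = 0.315).

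Some genes of a list of immediate early and cell isolation responses, which also holds heat shock genes, were higher in Foxp3-DTR. Of 17 listed genes, all tested, 5 rose, 0 fell, and the median was 0.65 on the log2 scale, beside 1.25% of all tested genes called. DESeq2 called 6 higher and limma-voom 3 higher, beside 7.4% and 0.72% of all genes called by each in either direction. The groups did not overlap in 13, beside 45.7% of all tested genes. Foxp3-DTR was higher in 10 (22% of all tested genes) and lower in 3 (23.7%). Those 3 were Jun (-0.62), Klf4 (-0.47) and Nr4a1 (-0.38), none of them called. The list summed to 2043 and 1893 CPM in Foxp3-DTR C and D against 1321 and 1283 CPM in WT A and C. Those that rose were Socs3, an inhibitor of cytokine signalling (2.69 ± 0.19, edgeR adjusted p = 0.0033), Junb, Btg2 (1.33 ± 0.18), Klf6 (1.13 ± 0.17) and Zfp36. The list shares Jun, Junb, Atf3, Zfp36 and Hspb1 with the stress MAP kinase outputs and Egr1 with the ERK outputs. Junb and Zfp36 are thus counted in both lists that hold them. Without Foxp3-DTR C, the adjusted p was 0.119 for Btg2 and 0.155 for Klf6, and without Foxp3-DTR D that of Klf6 was 0.0879. In limma-voom Klf6 had an adjusted p of 0.0503. Fos, a classical member, had 22.9 and 57.5 CPM in Foxp3-DTR against 39.4 and 20.1 CPM in WT, with overlap. The part of sample handling in the values of Dusp6, Ier3, Myc or Junb was not tested.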

How the data were processed

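The authors deposited raw read counts by gene symbol, 1 column for each library. HTSeq 0.6.1, SAMtools 0.1.19.0, TopHat2 2.0.12, Bowtie2 2.1.0.0, CASAVA 1.8.2 and build mm10 (the assembly of GRCm38) are named in the submitters' processing notes. Per the labels' protocols the kit was a stranded mRNA kit. The strand setting of the counter is not given in the sources used here, so a gene and its antisense neighbour cannot be told apart. The counter's 5 special rows, 62.0% to 70.1% of each column, were left out.

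Foxp3-DTR was compared with WT in edgeR 4.0.16 under R 4.3.3 (TMM, filterByExpr, robust glmQLFit, glmQLFTest, group only), with Benjamini-Hochberg adjustment over 12920 genes and a threshold of 0.05. The F statistic and its degrees of freedom gave standard errors and 95% intervals. DESeq2 1.42.0, limma-voom (limma 3.58.1), DESeq2-type size factors, no filter, and leaving out each library were the alternatives. The procedure was tested on simulated counts. Exon lengths and overlaps came from protein-coding GENCODE M21 transcripts, and coordinates and promoter windows from RefSeq (GRCm38.p6), matched by symbol.

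The members, lists and named genes were chosen with earlier results of these data known, so no test over a list was made. Every member was described, and of the other lists the genes past the threshold, or the smallest p where there was none, with Mapk3, Etv4, Etv5, Egr1, Fos, Jun and Krt10 in any case. Atf3, Gadd45a, Gadd45g, Klf4, Nr4a1, Cd34, Itga6, Lhx2, Col1a1, Pdgfra, Pmel, Tyrp1, Tyr and Mitf fall outside this rule. They were named after their values were seen. A further gene that the rule names is not reported here. A planned search of protein sequences was not made.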

Additional observations from a re-analysis of the deposited data

How the results depend on the processing

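Each group has 2 libraries, and leaving 1 out assumes that the lone library varies like the other group. No paired analysis was possible because the groups share 1 replicate letter alone. In the alternatives run, 0 members were ever called lower. The count called higher was 1 (Dusp6) in DESeq2 and 1 with no filter, where 7.4% and 3.37% of all genes were called. It was 0 in limma-voom and 0 with DESeq2-type size factors in edgeR, where 0.72% and 1.31% were called. The reported test called 1.25%. The ERK feedback median ran from -0.14 to 0.46 with a library left out, that of the other Dusp genes from -0.10 to 0.028, and the stress-type median from -0.41 to -0.23. The stress-type median was -0.19 in DESeq2 and -0.19 with no filter, where Dusp2 joins the list. Over all genes, calls higher and lower numbered 106 and 55 in the reported test and 112 and 57 with DESeq2-type size factors in edgeR. They numbered 489 and 514 in DESeq2, 70 and 23 in limma-voom and 277 and 252 with no filter.

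Signs that turned were all of genes that did not pass. With a library left out the log2 fold change ran from -0.71 to 1.30 for Dusp5, -0.52 to 0.022 for Dusp4, -0.066 to 0.56 for Dusp1, -0.11 to 0.13 for Dusp3, -0.17 to 0.57 for Spry2, -0.24 to 0.22 for Spry1, -0.25 to 0.49 for Dusp22, -2.12 to 0.037 for Dusp26, -0.32 to 0.0087 for Spred1, -0.21 to 0.48 for Spred2 and -0.10 to 0.11 for Dusp28. It ran from -0.15 to 0.16 for Mapk3, -0.20 to 0.0504 for Etv4, -0.36 to 1.02 for Fos and -2.38 to 3.11 for Krt10. Dusp3 was 0.0082 and Dusp28 0.00046 with DESeq2-type size factors, 0.0085 and 0.00072 in DESeq2, and 0.014 and 0.0067 with no filter, where Mapk3 was 0.0043. In limma-voom Spry1 was -0.011 and Krt10 0.30. For these the cause was not tested.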

Other observations

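The genes and ratios here were chosen after their values were seen. Among the 3 cytoplasmic phosphatases that prefer ERK (Dusp6, Dusp7 and Dusp9), Dusp6 took 52.0% of the counts in Foxp3-DTR C (exact 95% interval 50.4 to 53.5) and 46.4% in Foxp3-DTR D (44.7 to 48.0), against 30.04% in WT A (28.1 to 32.0) and 37.4% in WT C (35.6 to 39.2). These intervals cover counting error only, and Dusp7 made up nearly all of the rest.

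Not all ERK output genes lay on the same side as Dusp6, Ier3 and Myc. Ccnd1, the cyclin that links growth factor signals to the cell cycle, stood at 82.4 and 192 CPM in Foxp3-DTR C and D against 487 and 357 CPM in WT A and C (log2 fold change -1.62 ± 0.43, edgeR adjusted p = 0.157). Epha4, a guidance receptor, stood at 53.1 and 55.1 CPM in Foxp3-DTR against 99.9 and 119 CPM in WT (log2 fold change -1.02 ± 0.18, edgeR adjusted p = 0.0577). Neither passed in edgeR, while DESeq2 called both lower (adjusted p = 0.000634 and 0.000476).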
